A study of Mus musculus with 6 samples.

Results

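Pdcd1-positive conventional CD4 T cells of an intracranial mouse glioma are described here, 277 cells out of 7847 T cell receptor (TCR) bearing cells that passed the filters. They were chosen from measured RNA counts. A cell had to carry at least 5000 unique molecular identifiers (UMIs, each marking 1 captured RNA molecule), at most 10% mitochondrial UMIs and an assembled TCR contig. It also needed at least 1 UMI of Cd4 and of Pdcd1, none of Cd8a, Cd8b1, Foxp3 or Mki67, and at most 3 UMIs of the myeloid genes C1qa, Lyz2 and Csf1r together. Day 13 gave 142 such cells and day 19 gave 135. The same gate with Pdcd1 at 0 held 163 cells at day 13 and 75 at day 19, and these are called Pdcd1-zero cells.

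All cells came from wild-type C57BL/6J mice of 6 to 8 weeks that carried CT2A, a mouse glioma line, in the brain. No group received a treatment or carried an engineered allele, as far as the labels say. The early group was taken at day 13, from 16 mice pooled by 4, and the late group at day 19, from 4 mice. The labels of both days describe a CD3 sort, while the series description names a sort on CD3 with CD4 or CD8. Each day was 1 capture with 10x Genomics 5′ chemistry, which read RNA, antibody tags and TCR chains from the same droplets, so day, capture and mice cannot be told apart.

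PD-1, the product of Pdcd1, is an inhibitory receptor that T cells put on their surface when their TCR is engaged, and that they keep during lasting exposure to antigen. Conventional CD4 T cells are the helper cells that do not express Foxp3, the factor that defines regulatory T cells. Helper cells of the type 1 kind secrete interferon gamma (Ifng), and follicular helper cells secrete interleukin 21 (Il21), a cytokine that sustains CD8 T cells and B cells. Lag3 and Tigit are further inhibitory receptors. Tcf7 encodes a transcription factor of naive, memory and progenitor-like T cells, and S1pr1, Klf2 and Lef1 belong to the program of cells that recirculate through blood and lymph nodes.

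Per day, 4 TCR contig tables were deposited, and the barcodes of 1 table are called a contig set. Members fell into the sets as 32, 29, 49 and 32 cells at day 13 and as 3, 87, 25 and 20 at day 19. The labels do not state that a set is a mouse or a pool, and 16 of the 39 expanded clonotypes of members at day 19 recurred in another set, against 2 of 21 at day 13. The sets therefore describe the spread within a capture and were not used as replicates, and no p-value is given. In day-19 set 2, 15 of 87 members carried another set's multiplexing tag as the most counted one, while all 142 members at day 13 and the other 120 at day 19 carried that of their own set. No member barcode occurred on both days, although 28 barcodes of all filtered cells did. Members were deeper than Pdcd1-zero cells, with median depths of 6714 against 6045 UMIs at day 13 and 7867 against 6464 UMIs at day 19. Intervals in brackets are exact 95% intervals and cover counting error only. Levels are CPM, the UMIs of a gene in the summed cells of a class per 1000000 gene UMIs, and ratios are log2 ratios of these levels.

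Some droplets of the gate carried RNA of antigen-presenting cells. At least 20 UMIs of Cd74 and H2-Aa, which encode parts of the MHC class II machinery, were found in 15 members (10.6%) at day 13 and 9 (6.67%) at day 19. Among Pdcd1-zero cells they were found in 21 (12.9%) and 6 (8.0%). The 9 macrophage markers summed to 2483 CPM in members and 1748 CPM in Pdcd1-zero cells at day 13, with sets from 272 to 3328 CPM and from 587 to 2912 CPM, and all 9 had a UMI. At day 19 they summed to 1619 and 2630 CPM, with sets from 848 to 2050 CPM and from 260 to 3961 CPM. Without those droplets the sums were 746 and 414 CPM at day 13 and 1126 and 477 CPM at day 19. Cd8a, Cd8b1, Hbb-bs and Hba-a1 were at 0 in every class, the first pair by the gate. The 7 regulatory T cell markers, with Foxp3 at 0 by the gate, summed to 741 CPM in members and 417 CPM in Pdcd1-zero cells at day 13, over sets of 385 to 1181 and 311 to 570 CPM. At day 19 they summed to 791 and 619 CPM, over sets of 526 to 1013 and 525 to 820 CPM. Values without the antigen-presenting droplets, and for some genes without cells that had both Il2ra and Ikzf2, are given beside the results.

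Members had UMIs of all 10 conventional CD4 T cell markers, summing to 4071 CPM at day 13 and 5372 CPM at day 19. The gate itself asked for Cd4 and Pdcd1, which are part of these sums, so these genes are no check of the label. The TCR and CD3 genes go with the required TCR contig and are shared by other T cells. Lag3 and Ifng were higher in Pdcd1-positive CD8 T cells at day 19, at 479 and 370 CPM against 344 and 245 CPM in members. The sums are therefore a description. Cd4 was at 296 CPM (266 to 329) and 357 CPM (325 to 392). Of the follicular helper genes, the chemokine receptor Cxcr5 was at 25.8 and 26.5 CPM and the factor Bcl6 at 13.7 and 27.3 CPM, and Bcl6 also had a UMI in 22.9% of 536 myeloid droplets at day 13.

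Of the gate, 46.6% of cells (40.9 to 52.3) had a Pdcd1 UMI at day 13 and 64.3% (57.4 to 70.8) at day 19. The 4 sets ranged over 59.3%, 31.9%, 52.7% and 47.8% at day 13 and over 60.0%, 69.0%, 52.1% and 64.5% at day 19, and so overlapped. The level of Pdcd1 within members was 421 CPM (384 to 460) at day 13 and 543 CPM (503 to 585) at day 19. Its sets overlapped too, from 297 to 536 CPM and from 312 to 773 CPM. The members just inside the Pdcd1 limit had 1 UMI, 49 cells at day 13 and 29 at day 19, and the highest cell had 21 and 20 UMIs.

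**Figure D1:**
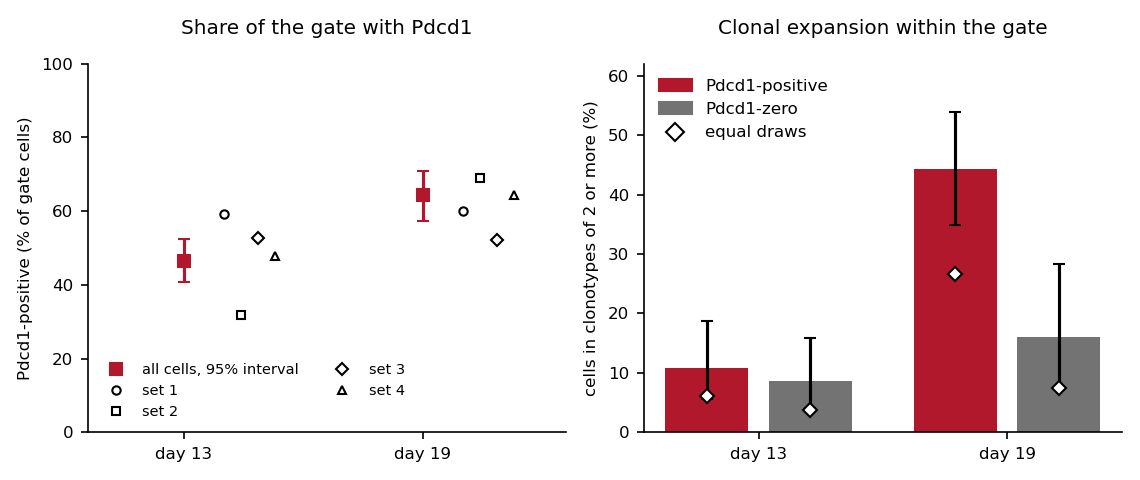
Left, the share of the conventional CD4 gate with at least 1 Pdcd1 UMI (%), for all cells of a day with the exact 95% interval and for each contig set (open symbols; day-19 set 1 holds 5 cells). Right, the share of cells whose clonotype had at least 2 cells in the gate (%), with exact 95% intervals and, as diamonds, the share after equal draws of both classes; at day 19 members stood at 44.2% and Pdcd1-zero cells at 16.1%.

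The inhibitory receptor genes Lag3, Tigit and Cd200 were at least 2-fold higher in members than in Pdcd1-zero cells on both days, and Ctla4 and Vsir were not. Because Pdcd1 in these cells chose the classes, the contrast of the classes is a description, and nothing is read from its counts. A gene was called measured when its UMIs in both classes, added together, came to 100 or more. A gene low in 1 class could reach this minimum only because the other was high, so its difference was partly set by the minimum. The same holds between the days. At day 13, 29 of 3425 measured genes (0.847%) were at least 2-fold higher in members and 24 (0.701%) at least 2-fold lower, 53 (1.55%) in all. Of these, 16 (0.467%) were higher and 13 (0.38%) lower in all 4 sets. At day 19, 65 of 2716 genes (2.39%) were at least 2-fold higher and 20 (0.736%) at least 2-fold lower, 85 (3.13%) in all, and 22 (0.81%) were higher and 9 (0.331%) lower in all 4 sets. Of the 12 inhibitory receptor genes listed, 5 were measured, and 3 of these were at least 2-fold higher on each day, with list medians of 1.45 and 1.28 against medians of all genes of 0.06 on each day. At day 13 Lag3 and Cd200 were measured only because members were high, with 129 and 107 UMIs against 41 and 40 in Pdcd1-zero cells, so the day-13 count and median depend on them. Ctla4 was at 0.76 and 0.58, and Vsir at -0.35 and -0.19.

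Lag3 encodes a receptor for MHC class II. In members it stood at 191, 29.3, 49.6 and 212 CPM in sets 1 to 4 at day 13, and in Pdcd1-zero cells at 49.5, 53.6, 30.9 and 0 CPM. Sets 1 and 4 were high in members, and set 2 lay below its Pdcd1-zero cells. The sums gave 111 CPM (92.5 to 132) against 34.6 CPM (24.8 to 46.9), a ratio of 1.68 (1.16 to 2.22), which was 0.90 without day-13 set 4. At day 19 members had 0, 399, 280 and 236 CPM, and Pdcd1-zero cells 0, 98.1, 60.3 and 178 CPM. Except for set 1, with 3 and 2 cells, each set was higher in members. The sums gave 344 CPM (312 to 378) against 94.4 CPM (70.9 to 123), a ratio of 1.86 (1.45 to 2.30).

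Tigit, a receptor that binds poliovirus receptor family proteins, was higher in members in all 4 sets of both days. It stood at 325, 130, 210 and 443 CPM in members at day 13 and at 84.9, 123, 84.4 and 80.9 CPM in Pdcd1-zero cells, a ratio of 1.46 (1.15 to 1.78). At day 19 members had 490, 525, 515 and 344 CPM and Pdcd1-zero cells 352, 228, 151 and 178 CPM, a ratio of 1.28 (0.99 to 1.58). Cd200, whose protein signals to a receptor on myeloid cells, had ratios of 1.45 (0.91 to 2.01) and 1.44 (0.96 to 1.95). At day 13 it was 2.00 without the antigen-presenting droplets and 0.79, below 2-fold, after thinning to 5000 UMIs per cell, and at day 19 it was 0.94 with the deepest cell per clonotype.

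Costimulatory molecules moved in part. Of 13 measured genes, 3 were at least 2-fold higher in members on each day and none was 2-fold lower. Tnfrsf9, which encodes 4-1BB, was at 206 against 77.6 CPM at day 13 and 391 against 180 CPM at day 19. Its ratio was 0.92 after thinning to 5000 UMIs per cell at day 13. At day 19 it was 0.99 without the antigen-presenting droplets, 0.47 with equal weight per set and 0.16 without set 2, all below 2-fold. Its members' sets at day 13 were 325, 58.6, 123 and 368 CPM, so sets 1 and 4 were again the high ones. Tnfsf11, which encodes RANKL, had ratios of 1.51 (1.08 to 1.95), or 0.12 after thinning to 5000 UMIs per cell, and 1.76, or 0.95 after thinning. Tnfrsf4 (OX40) was at 1.35 at day 13, or 0.90 with barcodes of at least 2000 UMIs, and Tnfsf8 (CD30 ligand) was at 1.57 at day 19. Icos differed little, at 0.29 and 0.14, and Cd40lg, which licenses antigen-presenting cells, was at -0.45 and -0.12.

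Of the genes shared with regulatory T cells, 3 of 6 measured at day 13 and 4 of 9 at day 19 were at least 2-fold higher in members and none 2-fold lower. The others had ratios between 0 and 1, and no gene that was at least 2-fold higher was higher in all 4 sets. At day 13 Il2ra (1.45), Ikzf2 (1.39) and Ccr8 (2.29) were at least 2-fold higher. Il2ra and Ccr8, with 110 and 139 UMIs in members against 41 and 29 in Pdcd1-zero cells, were measured only because members were high. At day 19 this held for Penk, Ebi3 and Nrp1, so nothing is read from these counts. Ikzf2, which encodes Helios, stood at 296, 33.5, 56.7 and 215 CPM in the members' sets, high in sets 1 and 4 and below the Pdcd1-zero cells in set 2, and its ratio was 0.75 without set 1. Ccr8, a chemokine receptor of tumor regulatory T cells, stood at 119 against 24.4 CPM. Its ratio was 1.24 when day-13 set 3 was left out. Leaving out cells with both Il2ra and Ikzf2 gave 1.28 for Tigit and 1.00 for Il2ra at day 13. At day 19 Ccr8 had a ratio of 1.69, Ebi3 of 1.83 and Nrp1 of 1.59, or 0.72 without day-19 set 2, whereas Il2ra was at 0.05 and turned to -0.04 without the antigen-presenting droplets. The part of regulatory T cells without a Foxp3 UMI in these values was not tested.

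Cytokines differed by gene. Il21 was at 14 UMIs in 3 of 142 members and 2 UMIs in 1 of 163 Pdcd1-zero cells at day 13. At day 19 it was at 76 UMIs in 25 of 135 members and 5 UMIs in 2 of 75 Pdcd1-zero cells, or 61.0 CPM (48.1 to 76.4) against 8.74 CPM (2.84 to 20.4). The members' sets were at 0, 66.8, 26.7 and 83.5 CPM, and the Pdcd1-zero sets at 0, 6.33, 0 and 41.0 CPM, so no set was lower in members. After thinning to 5000 UMIs per cell, 11.6% of members (6.7 to 18.5) and 3.2% of Pdcd1-zero cells (0.7 to 9.0) had an Il21 UMI at day 19. No Il21 UMI was found in 536 and 189 myeloid droplets outside the contig sets, which allows shares of up to 0.560% and 1.59%, at median depths of 8850 and 9390 UMIs. Lag3, in contrast, had a UMI in 30.4% and 32.3% of those droplets, above the 23.2% of members at day 13 and below the 51.9% at day 19, so the day-13 share of members with Lag3 is not above that of the myeloid droplets. The part of RNA from other cells in the day-13 levels of Lag3, which also enter the comparisons of days and of clonotypes, was not tested.

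Ifng, the type 1 cytokine, did not separate the classes at day 13, with 121 CPM (102 to 143) in members and 118 CPM (99.3 to 139) in Pdcd1-zero cells. At day 19 it stood at 245 CPM (218 to 274) and 164 CPM (133 to 201), a ratio of 0.58 (0.24 to 0.93). The members' sets were 89.1, 302, 218 and 68.8 CPM, and the Pdcd1-zero sets 0, 177, 121 and 246 CPM, so set 4 went the other way. Leaving out day-19 set 2 gave a ratio of -0.04, and the deepest cell per clonotype gave -0.48. Of the 14 type 1 helper genes measured at day 13 and the 13 at day 19, Il2 alone was at least 2-fold higher in members, and the list medians were 0.11 and 0.15. Il2 at day 13 came from 1 cell, which held 355 of the 370 UMIs. Tbx21, the type 1 master factor, was at -0.02 at day 13.

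Genes of recirculating cells were at least 2-fold lower in members in part at day 19 and in 1 case at day 13. Of 13 measured circulation and memory genes, 1 was at least 2-fold lower at day 13 (Igfbp4) and none higher. Of 12 at day 19, 5 were at least 2-fold lower, among them Lef1, S1pr1, Klf2 and Klf3, and none higher. Each of these 4 fell short of 2-fold in some setting, Lef1 at -0.52 with equal weight per set and -0.82 without day-19 set 3, Klf3 at -0.76 without that set, Klf2 at -0.93 after thinning and S1pr1 at -0.92 with barcodes of at least 2000 UMIs. The medians were -0.47 and -0.91. Klf2, a factor that drives S1pr1, was lower in all 4 sets of both days, with ratios of -0.68 (-0.82 to -0.53) and -1.19 (-1.41 to -0.97). At day 19 its members' sets were at 669, 248, 249 and 369 CPM and the Pdcd1-zero sets at 1173, 560, 687 and 670 CPM. S1pr1, the receptor for exit from tissue, was at 129 against 125 CPM at day 13 and 72.3 against 196 CPM at day 19. The day-19 sets were 44.6, 60.5, 102 and 88.5 CPM in members and 58.6, 158, 253 and 260 CPM in Pdcd1-zero cells, so each set was lower in members although the groups overlapped. Ccr7, which guides cells to lymph nodes, went the other way, at 0.62 and 0.51. Igfbp4, a gene of naive CD4 T cells, stood at 17.2 against 172 CPM at day 13, lower in all 4 sets, with 204 UMIs in 14 Pdcd1-zero cells.

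**Figure D2:**
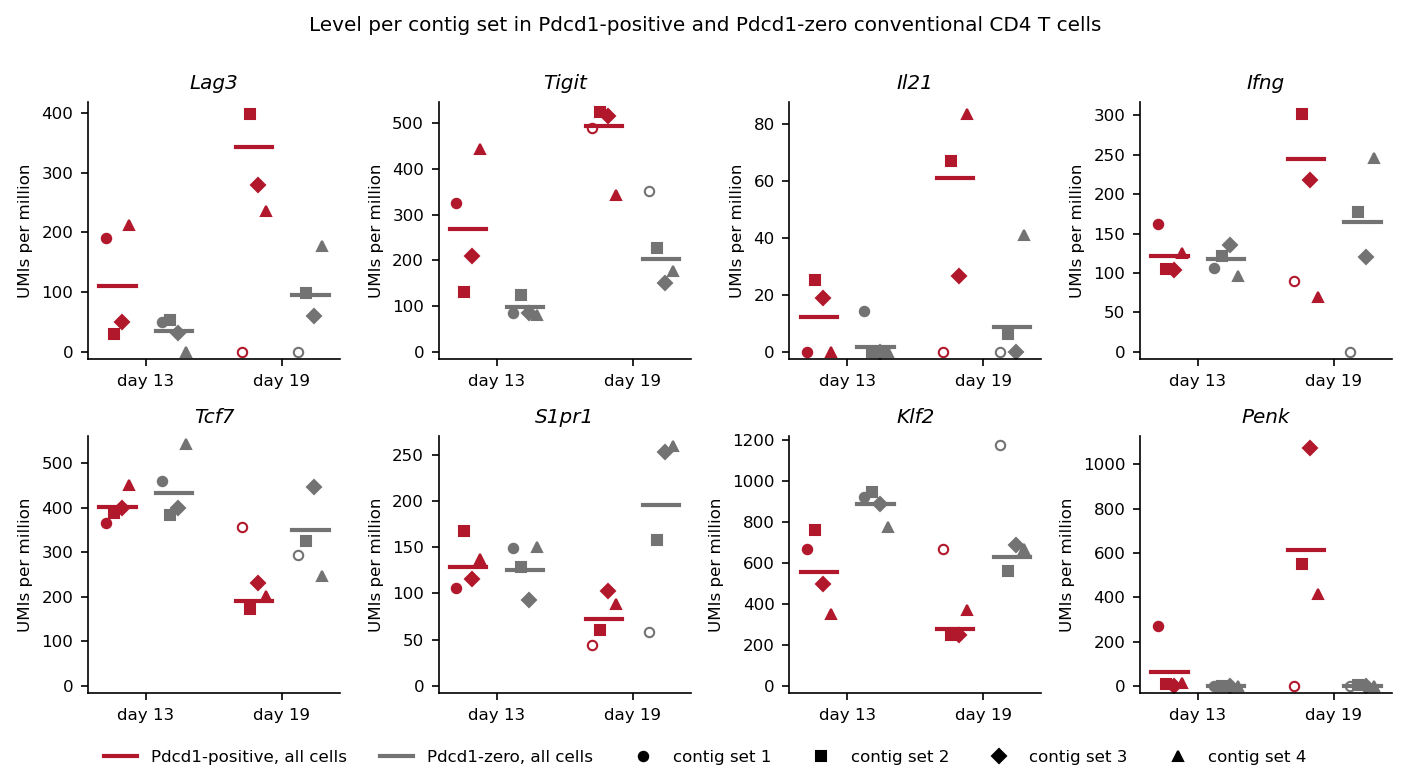
Level of 8 genes (CPM) in Pdcd1-positive (red) and Pdcd1-zero (grey) cells at both days; bars give all cells of the class, symbols the 4 contig sets, open for day-19 set 1, which holds 3 and 2 cells. At day 19 S1pr1 lay between 44.6 and 102 in the Pdcd1-positive sets and between 58.6 and 260 in the Pdcd1-zero sets, and Penk was near 0 in the Pdcd1-zero sets.

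The 12 genes with the highest ratio in members at day 19 included several that few cells carried. Penk, which encodes the precursor of enkephalin peptides, had 764 UMIs in 18 members and 1 UMI in the Pdcd1-zero cells, a ratio of 8.46 (5.97 to 13.76). The members' sets were 0, 552, 1075 and 413 CPM, and 742 of the UMIs lay in 10 cells. After thinning to 5000 UMIs per cell, which moves cells with 1 Pdcd1 UMI between the classes, the ratio was 1.14. Tff1, a trefoil factor, had 127 UMIs in 20 members and none in Pdcd1-zero cells, so that its ratio was at least 4.28 with the sum of 0 set to 3 counts, and 2.76 after thinning. C2cd4b had 136 UMIs in 21 members and 2 UMIs in Pdcd1-zero cells, a ratio of 4.97 (3.09 to 8.03), which was 2.24 with day-19 set 2 left out and 2.67 after thinning. Penk, Tff1 and C2cd4b were measured only through their UMIs in members, so they had to differ. Il1r2, the decoy receptor for interleukin 1, had a ratio of 2.44 (1.90 to 3.03) with 44 members carrying it, or 1.40 after thinning. Ccl3, at 3.24, had 100 of its 103 UMIs in 10 members, and its ratio was 0.60 with the deepest cell per clonotype. Stx11, which serves granule release, at 2.41 (1.89 to 3.45 over the sets left out and 1.72 after thinning), and Ramp3, a partner of the calcitonin receptor family, at 2.16, were higher in all 4 sets, and Ramp3 was at 0.75 with barcodes of at least 2000 UMIs. Rgs16, a brake on chemokine receptor signalling, was at 1.74 at day 13, or 0.79 with day-13 set 4 left out, and at 1.96 at day 19, or 1.18 with day-19 set 2 left out. At day 19 Ccl3, Stx11, Ramp3 and Il1r2 had 5, 17, 24 and 30 UMIs in Pdcd1-zero cells. They too reached the minimum of 100 UMIs only because members were high, as did Rgs16 at day 13, with 39. Nothing is read from these genes being higher.

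Some of the day-19 genes were found together in part of the cells. Of the 18 members with Penk at day 19, 6 had Tff1, 5 had C2cd4b, 9 had Il1r2, 13 had Lag3 and 12 had Ccr8. Of all 135 members, 20 had Tff1, 21 had C2cd4b, 44 had Il1r2, 70 had Lag3 and 69 had Ccr8. Of the 20 with Tff1, 16 had Il1r2, which 44 of all 135 members had. The 13 Penk cells with a clonotype belonged to 13 clonotypes. These pairs were chosen after their values were seen.

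At day 13 the highest genes also included Eea1, an endosomal tethering factor, at 133 against 28.7 CPM and higher in all 4 sets. Its ratio of 2.22 was 0.99 after thinning. Of the 12 lowest genes at day 13, several are genes of myeloid cells, such as Fcgr1, Lst1 and Ms4a6c. Without the antigen-presenting droplets, 31 of 2804 genes (1.11%) were at least 2-fold higher in members and 4 (0.143%) at least 2-fold lower, Ms4a6c went from -1.48 to -0.28, and Ifitm1 turned from -1.89 to 3.57. Igfbp4 was at -5.13 and Phf11d at -1.77 without them. At day 19 the heat shock genes Hspa1a and Hspa1b were lower in members in all 4 sets, at -1.56 (-1.84 to -1.28) and -1.45 (-1.70 to -1.19), as was the immediate early gene Egr1, at -1.25. Without day-19 set 2, Hspa1b was at -0.93 and Egr1 at -0.71, below 2-fold. Of the 14 genes of the dissociation stress list, 12 had a ratio below 0 at day 13 and 13 at day 19, with medians of -0.39 and -0.58, against 40.6% and 42.3% of all measured genes below 0, so this list moved with the circulation genes and its part in them was not tested. Between the days all 14 were below 0 in members, with a median of -0.39.

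Among other lists, glycolysis and hypoxia genes had 10 of 11 ratios above 0 at day 13 and 10 of 10 at day 19, with medians of 0.39 and 0.61. Gapdh stood at 782 against 558 CPM and at 1132 against 743 CPM, higher in members in all 4 sets of both days. Of all measured genes, 59.4% and 57.7% had a ratio above 0. Tpi1 (1.10) and Hif1a (1.18) were at least 2-fold higher at day 19, but at 0.86 and 0.87 after thinning. Exhaustion factors had medians of 0.44 and 0.50. Tox, the factor most tied to exhaustion, was at 0.65 (0.10 to 1.22) and 0.76 (0.16 to 1.41), below 2-fold. Residency and integrin genes had medians of -0.03 and -0.14, and cytotoxic genes -0.11 and 0.42.

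**Figure D3:**
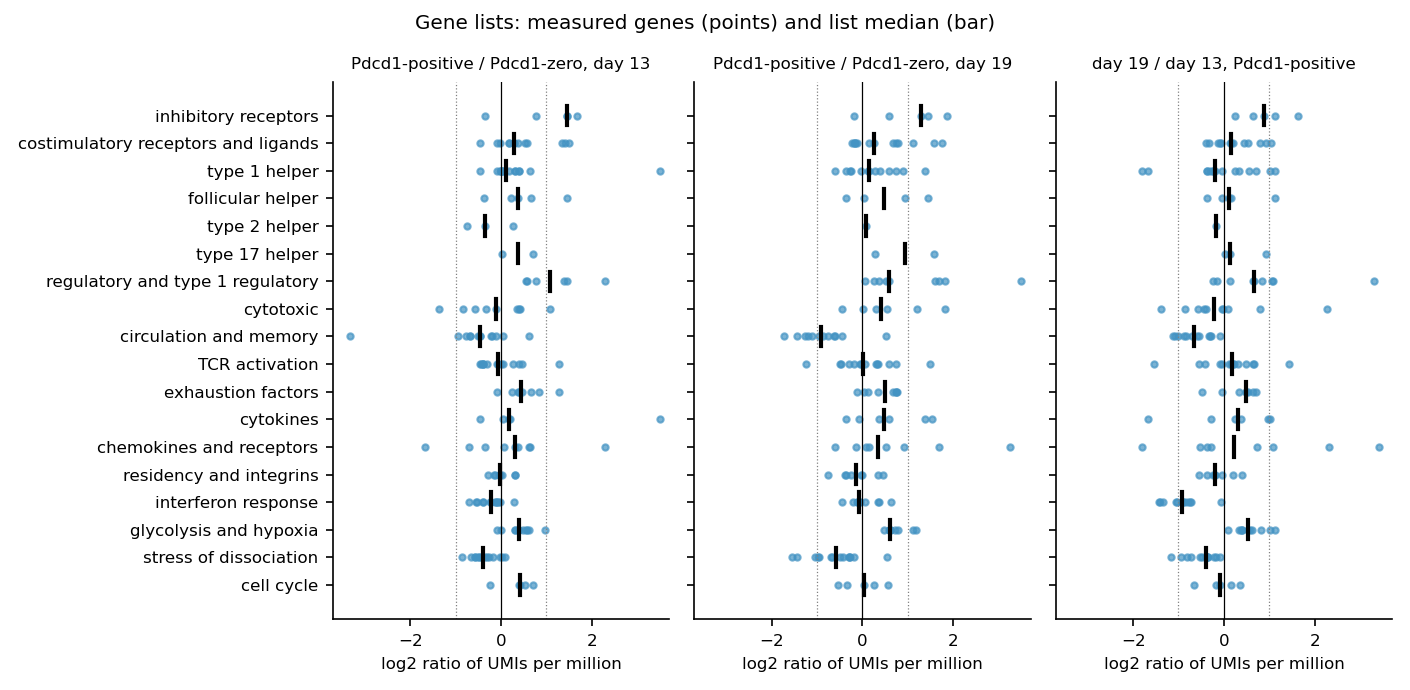
Log2 ratios of CPM for the measured genes of 18 lists (points, drawn at 3.5 where larger) and their medians (bars), for members against Pdcd1-zero cells at day 13 and day 19 and for day 19 against day 13 in members; dotted lines mark 2-fold. The median of the inhibitory receptors was 1.45, 1.28 and 0.88 in the 3 panels and that of the circulation and memory genes -0.47, -0.91 and -0.66, with single genes of both lists on the other side of 0 in the first and second panels.

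At day 19 the cells with the most Pdcd1 also had the most Lag3 and Il21, which is a description, since Pdcd1 chose the cells. With 0, 1, 2 to 3 and 4 or more Pdcd1 UMIs, Lag3 stood at 34.6, 108, 113 and 110 CPM at day 13 and at 94.4, 228, 221 and 451 CPM at day 19. Il21 at day 19 stood at 8.74, 19.7, 26.9 and 94.4 CPM, so that 62 of the 76 UMIs lay in the 65 members with 4 or more Pdcd1 UMIs. Tigit stood at 203, 378, 350 and 611 CPM over the same steps, and Tcf7 at 350, 232, 248 and 146 CPM. The median depth went up over these steps, from 6464 to 7241, 7867 and 8357 UMIs, and its part was not tested.

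**Figure D4:**
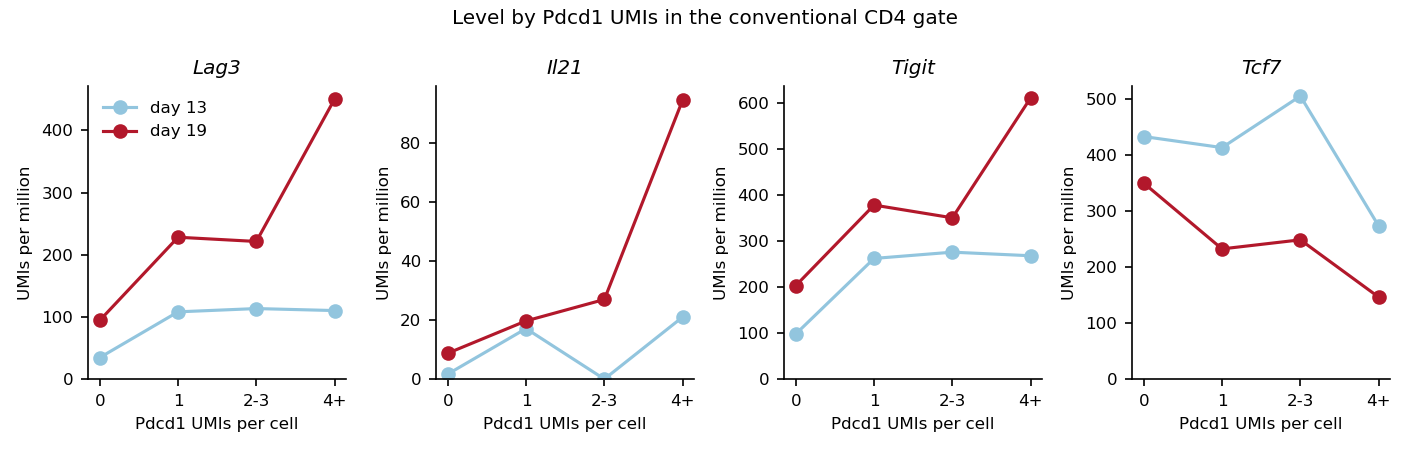
Level of Lag3, Il21, Tigit and Tcf7 (CPM) in conventional CD4 gate cells with 0, 1, 2 to 3 or 4 and more Pdcd1 UMIs, at day 13 and day 19. At day 19 Lag3 went from 94.4 to 451 and Tcf7 from 350 to 146, while at day 13 Lag3 was near 110 at every step above 0.

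Between the days, Lag3, Il21 and Cd200 were at least 2-fold higher in members at day 19, and Tcf7 and 5 of 13 measured interferon response genes at least 2-fold lower. With equal weight per set Lag3 (0.93), Cd200 (0.76) and Tcf7 (-0.74) were below 2-fold. Day-19 set 2 holds 87 of the 135 members and weighs most in the sums. This contrast was not used to choose the cells. Of 3543 measured genes, 58 (1.64%) were at least 2-fold higher at day 19 and 93 (2.62%) at least 2-fold lower, 151 (4.26%) in all. For 9 (0.254%) every day-19 set lay above every day-13 set, and for 35 (0.988%) below. In Pdcd1-zero cells 17 of 2598 (0.654%) were higher and 72 (2.77%) lower. The day-19 set with 3 members gives values of little weight, so a second count asked for sets with at least 10 members to lie apart, which held for 40 genes (1.13%) higher and 42 (1.19%) lower.

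Lag3 was higher at day 19 by 1.63 (1.35 to 1.93), with the sets of at least 10 members at 236 to 399 CPM against 29.3 to 212 CPM at day 13, which do not overlap. Cd200 was at 199 against 91.9 CPM, a ratio of 1.12 (0.78 to 1.46), and its larger sets, 173 to 213 CPM against 41.9 to 123 CPM, did not overlap either. Tigit was at 0.88 (0.68 to 1.08) and overlapped. Havcr2, which encodes TIM-3, held fewer than 100 UMIs, with 53.0 against 18.9 CPM and overlapping sets, and had a UMI in 62.5% of the day-13 myeloid droplets. Of the 5 measured inhibitory receptors, 2 were at least 2-fold higher and none lower, with a median of 0.88 against 0.00 over all genes. Lag3 was higher by 1.45 in Pdcd1-zero cells too, from 34.6 to 94.4 CPM, and the difference between the classes was not tested.

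Il21 was higher in members at day 19 by 2.34 (1.51 to 3.28), with 14 and 76 UMIs. It was left out of the count of measured genes, since these sum to less than 100. Over 13 other settings its ratio ran from 1.01 to 2.86, and leaving out single sets it ran from 1.99 to 2.91. Its day-19 sets of at least 10 members lay at 26.7 to 83.5 CPM, and the day-13 sets at 0 to 25.1 CPM, a gap smaller than the spread within either day. The 25 members with an Il21 UMI at day 19 fell into the sets as 0, 15, 4 and 6 cells, and 18 of them with a clonotype belonged to 16 clonotypes. The top cell had 28 of the 76 UMIs. Of the 25 cells, 12 also had Ifng, 17 had Lag3 and 14 had Tcf7. Of all 135 members, 56 had Ifng, 70 had Lag3 and 76 had Tcf7. Cells with Il21 and Ifng had a median depth of 11221 UMIs and those with Il21 and Lag3 10542, against 7867 over all members.

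Ifng was at 245 CPM at day 19 against 121 CPM at day 13, a ratio of 1.02 (0.72 to 1.31), with overlapping sets. Of the 305 UMIs at day 19, 90 (29.5%) lay in the 10 members of 1 clonotype. Without that clonotype the level was 185 CPM. The ratio was 0.95 without the antigen-presenting droplets, 0.25 with day-19 set 2 left out and -0.09 with the deepest cell per clonotype. The share of members with an Ifng UMI, after thinning, was 30.2% (22.3 to 39.0) at day 13 and 33.3% (25.3 to 42.2) at day 19. Ccl3 and Ccl4, chemokines of activated T cells, were at 3.42 and 2.32, with 31.1% and 30.4% of their day-19 UMIs in that same clonotype. Ccl3 was at -0.22 without day-19 set 2. Penk was higher by 3.31 (2.96 to 3.68), C2cd4b by 4.99 (3.60 to 6.89) and Il1r2 by 2.88 (2.43 to 3.36), each with larger sets that did not overlap. C2cd4b had 4 UMIs at day 13 and was measured only through day 19, so it had to differ. Penk was higher by 6.82 without day-13 set 1, which held 3 of the 6 day-13 cells.

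Tcf7 was lower in all day-19 sets than in any day-13 set, at 357, 173, 231 and 201 CPM against 365, 389, 399 and 451 CPM. Its sums gave 191 against 401 CPM, a ratio of -1.07 (-1.30 to -0.84), which was -0.84 without day-19 set 2. In Pdcd1-zero cells Tcf7 was at 350 against 433 CPM, a ratio of -0.31. S1pr1 was at -0.83 (-1.23 to -0.45), with every day-19 set below every day-13 set. All 12 measured circulation genes were below 0, as were 49.5% of all measured genes, and 3 of the 12 were at least 2-fold lower, with a median of -0.66. Among them Ccr7 was at -0.28 and turned to 0.46 without the antigen-presenting droplets. Igfbp4 had 0 UMIs in members at day 19.

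Interferon response genes had ratios below 0 between the days in both classes. In members all 13 measured genes were below 0, 5 of them at least 2-fold lower (Ifit1, Ifit3, Oas3, Irf7 and Ifi213), with a median of -0.91. Ifit1 stood at 0, 147, 271 and 143 CPM in the day-19 sets and at 321, 419, 392 and 576 CPM in the day-13 sets, which do not overlap. Isg15 was at 701 against 1307 CPM, with overlapping sets. In Pdcd1-zero cells 8 of 13 were at least 2-fold lower, with a median of -1.36. The antigen-presenting droplets moved with this list, since without them the medians were -0.80 and -0.92, and in members Oas3 was at -0.93 and Irf7 at -0.77, below 2-fold. With the deepest cell per clonotype Ifit1 was at -0.91 and Ifit3 at -0.82. Ccl5 was lower by -1.80 (-1.90 to -1.70), from 3173 to 912 CPM, and day-13 set 3 alone stood at 5316 CPM. The ratio was -1.10 without that set, -1.03 after thinning and -1.20 without the antigen-presenting droplets. Fscn1, a gene of mature dendritic cells, and Cxcl16, a chemokine of antigen-presenting cells, were among the 12 lowest, at -3.18 and -2.56. Cxcl16 was at -0.83 with equal weight per set. Fscn1 was at -1.25 without the antigen-presenting droplets, and Cxcl9 turned from -3.36 to 1.63. Glycolysis genes were all 11 above 0, with a median of 0.53 and Tpi1 (1.01) and Pgk1 (1.12) at least 2-fold higher, or 0.93 and 0.97 without the antigen-presenting droplets.

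The share of cells in expanded clonotypes was higher in members than in Pdcd1-zero cells at day 19. A clonotype groups cells of a set whose TRA and TRB chains share the same bases in CDR3, the loop that contacts the peptide, and 101 members had one at day 13 and 113 at day 19. The share of members in clonotypes of at least 2 gate cells was 10.9% (5.56 to 18.7) at day 13 and 44.2% (34.9 to 53.9) at day 19. In Pdcd1-zero cells it was 8.65% (4.03 to 15.8) and 16.1% (7.62 to 28.3). By set, members at day 19 stood at 0%, 50.7%, 23.8% and 50.0% and Pdcd1-zero cells at 0%, 25.8%, 7.14% and 0%, so that the sets of the classes overlapped. Members at day 13 stood at 24.0%, 4.55%, 6.25% and 9.09%, which overlapped with their sets at day 19. When equal numbers of both classes were drawn from each set, the day-19 shares were 26.6% and 7.41%. Leaving out day-19 set 2 gave 33.3% in members and 4.0% in Pdcd1-zero cells. Of members with a clonotype at day 19, 30.1% had a clone mate with an Mki67 UMI and 16.8% one with a Foxp3 UMI, against 1.98% and 4.95% at day 13. In Pdcd1-zero cells these shares were 10.7% and 7.14% at day 19 and 0.962% each at day 13. Day 13 mixed cells of 16 mice in pools of 4, whereas day 19 had 4 mice. Mixing mice can by itself lower the share of expanded clonotypes and of cells with a clone mate. No change in clonal expansion is therefore read from the shares of 1 day against the other. The Foxp3 share of members at day 19 was 19 cells. The largest clonotype, with 10 members, had a Foxp3 UMI in 1 of its filtered cells, so this share leans on single droplets. No clonotype of members was found on the other day.

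The CDR3 sequences of the largest clonotypes are shown since 1 of them carries much of the Ifng difference. They are nucleotides, 5′ to 3′, with the first and last codon in lower case and the part between them in capitals. The largest held 10 members, all in day-19 set 2, out of 46 barcodes in that set, and used TRAV6-7-DV9 with TRAJ31 and TRBV31 with TRBJ1-1:
Clone 1, TRA: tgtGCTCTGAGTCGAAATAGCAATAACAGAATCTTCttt
Clone 1, TRB: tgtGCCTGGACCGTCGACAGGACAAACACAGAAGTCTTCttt
The next had 4 members of set 2 among 11 barcodes, with TRAV7-3, TRAJ31, TRBV19 and TRBJ2-5:
Clone 2, TRA: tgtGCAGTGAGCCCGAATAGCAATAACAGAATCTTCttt
Clone 2, TRB: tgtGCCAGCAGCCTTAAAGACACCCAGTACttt
Both TRA sequences use TRAJ31 and share their last 24 bases. A day-13 clonotype with 1 member, which also uses TRAJ31, shares its last 24 bases with clone 1 and its last 25 with clone 2. The shared end is thus not particular to these clones. Of the 3 day-19 clonotypes with 3 members each, 2 use the same TRBV genes as clones 1 and 2. Clone 4 lay in set 2, with TRBV19 and TRBJ2-1, and clone 5 in set 4, with TRBV31 and TRBJ2-7:
Clone 4, TRB: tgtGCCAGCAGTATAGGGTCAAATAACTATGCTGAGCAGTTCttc
Clone 5, TRB: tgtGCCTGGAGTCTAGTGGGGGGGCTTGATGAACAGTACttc

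The clones differed in what they expressed. Clone 1 had 90 Ifng UMIs in 8 of its 10 members (1116 CPM), 57 Lag3 UMIs in all 10 (707 CPM) and no Tcf7 UMI. Clone 2 had no Ifng UMI and 13 Tcf7 UMIs (326 CPM), with Lag3 at 426 CPM. Clone 4 had Lag3 at 955 CPM in all 3 of its members and clone 5 at 328 CPM. Of the 13 filtered cells of clone 4, 6 carried a Cd8a or Cd8b1 UMI, as did 14 of the 23 of clone 3, the remaining clonotype with 3 members, and 3 of the 36 of clone 1. All 13, 23 and 36 of these cells also carried a Cd4 UMI. Il21 was seen in clone 1 alone of these 4, with 2 UMIs.

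Members of expanded clonotypes, counted over all barcodes of a set, differed from members seen once. Lag3 stood at 358 against 55.6 CPM at day 13, in 25 and 76 cells, and at 421 against 100 CPM at day 19, in 69 and 44 cells. The ratios were 2.68 (2.08 to 3.31) and 2.07 (1.59 to 2.59), higher in 3 of 4 sets on each day, and 1.92 at day 19 without clone 1. Tcf7 went the other way in all 4 sets of both days, at 121 against 511 CPM and 127 against 296 CPM, with ratios of -2.08 (-2.73 to -1.49) and -1.23 (-1.65 to -0.81). Pdcd1 itself differed less, by 0.46 and 0.52. Ifng was at 0.04 at day 13 and 1.15 (0.67 to 1.64) at day 19, and at 0.24 (-0.30 to 0.79) without clone 1. Il21 at day 19 stood at 41.7 CPM in expanded and 77.8 CPM in single members, a ratio of -0.90 that turned to 4.01 (1.38 to 9.38) without set 2. In Pdcd1-zero cells Lag3 was at 101 against 7.24 CPM at day 13, from 19 and 4 UMIs, and at 254 against 51.1 CPM at day 19. Its ratio of 3.81 at day 13 was 1.95 (-0.27 to 4.28) without set 2, and at day 19 it ran from 1.51 to at least 4.70 over the sets left out, the latter with 0 UMIs in single cells set to 3 counts. This comparison was added after the data were seen.

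Against other T cells of the same captures, members were close to Foxp3-positive cells in some genes and far from them in others. The comparison cells passed the same depth, Mki67 and myeloid limits. They were 129 and 85 Foxp3-positive CD4 T cells at day 13 and day 19, with median depths of 8159 and 7485 UMIs, and 774 and 478 Pdcd1-positive CD8 T cells, with 7627 and 9554 UMIs. At day 19 Lag3 was at 344 CPM in members (sets 0 to 399), 304 CPM in Foxp3-positive cells (sets 167 to 333) and 479 CPM in CD8 T cells (sets 300 to 539). Il21 was at 61.0 CPM in members, 9.84 CPM in Foxp3-positive cells and 0.199 CPM in CD8 T cells. Ifng stood at 245, 13.5 and 370 CPM in the same order, and Tcf7 at 191, 25.8 and 59.8 CPM. Ikzf2, at 116, 476 and 110 CPM, and Il2ra, at 85.1, 442 and 55.6 CPM, were far below the Foxp3-positive cells in members. Penk stood at 614 CPM in members and 375 CPM in Foxp3-positive cells, with sets from 0 to 1075 and from 0 to 1055 CPM, and at 1.20 CPM in CD8 T cells. Ramp3 stood at 187, 34.4 and 12.4 CPM, Tff1 at 102, 3.69 and 17.3 CPM, and Cd200 at 199, 43.0 and 49.2 CPM. No test was made of these differences, and the genes were chosen after their values were seen.

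**Figure D5:**
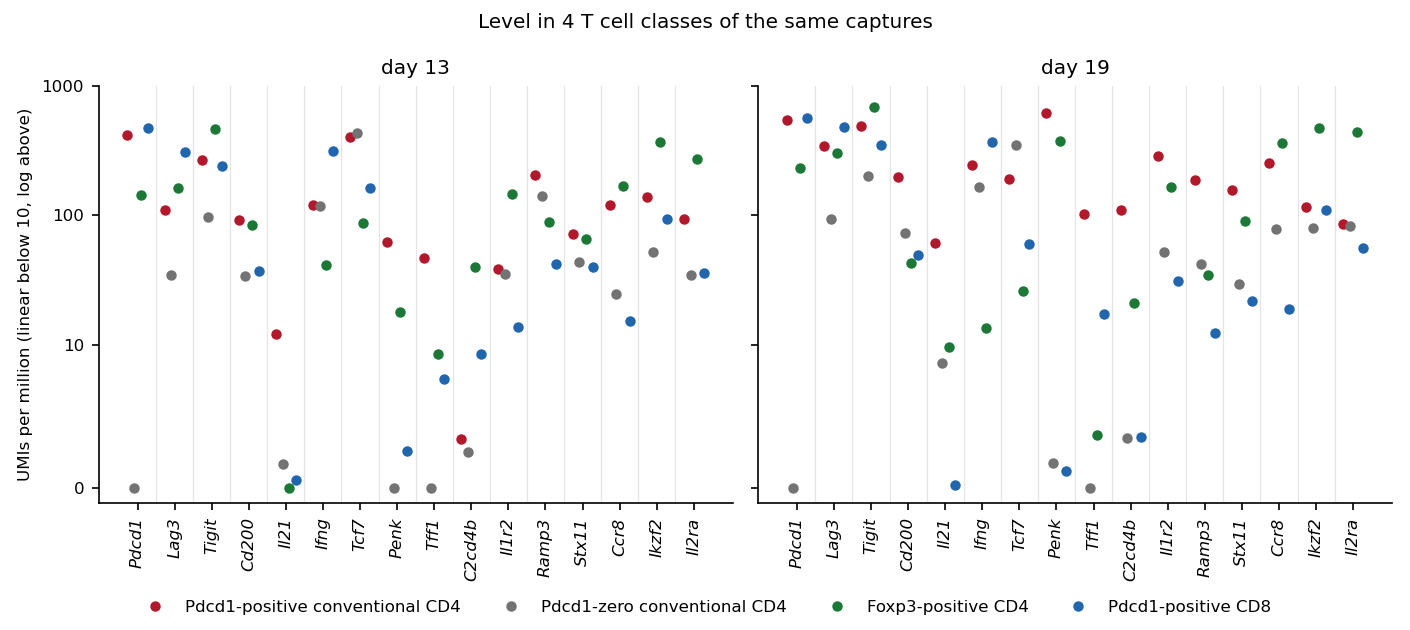
Level of 16 genes (CPM, linear below 10 and logarithmic above) in members, Pdcd1-zero cells, Foxp3-positive CD4 and Pdcd1-positive CD8 T cells at day 13 (left) and day 19 (right). At day 19 Il21 was at 61.0 in members and below 10 in the other classes, while Ikzf2 and Il2ra were highest in Foxp3-positive cells.

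Antibody tags were read in the same droplets. Tag counts are given per 10000 tag UMIs of the summed cells. The PD-1 tag (CD279) stood at 124 in members and 119 in Pdcd1-zero cells at day 13 and at 121 and 128 at day 19, with ratios of 0.06 (0.01 to 0.10) and -0.08 (-0.15 to -0.01). Over the steps of Pdcd1 UMIs it was 119, 120, 125 and 126 at day 13 and 128, 107, 125 and 126 at day 19, where the cells with 0 Pdcd1 UMIs were highest. The CD8 T cells compared for tags were a wider group, 2959 at day 13 and 1800 at day 19. They had a Cd8a or Cd8b1 UMI and none of Cd4, with no limit on Pdcd1, Foxp3, Mki67 or myeloid genes. Against these CD8 T cells at day 13, the CD8a tag was at 19.4 in members and 20.7, and the CD4 tag at 11.1 (sets 10.1 to 11.9) and 7.09 (sets 6.87 to 7.38). At day 19 the CD4 tag was at 14.5 (sets 11.5 to 19.6) and 6.82 (sets 6.39 to 7.01), so its sets did not overlap on either day. The isotype control tags IgG1, IgG2a and IgG2b stood at 26.8, 20.5 and 14.3 in members at day 13 and at 24.3, 20.8 and 12.4 at day 19. The CD4 tag at day 13 thus lay below all 3 controls and the CD8a tag among them. Of 138 tags, 1 (0.725%) was at least 2-fold apart between the classes at day 13, where 1 Pdcd1-zero cell held 4970 UMIs of the TCRgd tag. Of 128 at day 19, 1 (0.781%) was, where 1 member held 14238 UMIs of the CD1d tag. Between the days 2 of 137 tags (1.46%) were at least 2-fold apart in members, CD1d and CD357. The CD357 tag, which reads GITR, was at 26.8 at day 19 against 13.2 at day 13, with sets of 19.4 to 57.8 against 10.8 to 15.3, which do not overlap.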

How the data were processed

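RNA, antibody tags and TCR contigs were measured in 1 capture per day. The authors deposited unfiltered matrices of raw UMI counts per feature and barcode, and TCR tables with UMI counts per contig. The submitters' processing notes name bcl2fastq 2.20, Cell Ranger 4.0.0, STAR 2.7.5c, Seurat, R 4.1.2 and the mm10 build, with no role given. Gene UMIs totalled 144565182 for day 13 and 81224453 for day 19.

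UMIs were summed per class, set and day with Python 3.11.15, numpy 2.4.6, scipy 1.17.1 and pandas 2.3.3. Summed depths were 1164133 and 1245079 UMIs in members and 1185938 and 572215 in Pdcd1-zero cells. CPM uses all gene UMIs of a sum. Ratio intervals are exact for 2 Poisson counts and share intervals are Clopper-Pearson. Where a class had no UMI of a gene, 3 counts stood in for its sum. A gene was measured when its 2 sums came to 100 UMIs, and a change was called at 2-fold. No doublet caller was run. Thinning drew 5000 UMIs per cell and applied the gate to the drawn counts, which gave 126 members and 180 Pdcd1-zero cells at day 13, and 129 and 95 at day 19.

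Genes named were the cell type markers, 18 lists and the 12 highest and 12 lowest ratios, leaving out TCR, immunoglobulin, ribosomal, mitochondrial, unnamed and sex-linked genes. The members and lists were chosen with earlier results of these data known. Alternatives covered scaling, thinning, depth, gate limits, clonotypes and single sets. Leaving out antigen-presenting droplets or droplets with another set's tag, and asking for sets of at least 10 cells, were chosen after seeing the data. One gene of the circulation list is not reported here by name.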

Additional observations from a re-analysis of the deposited data

Results flagged for a closer look

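Il21 in Pdcd1-zero cells stood apart in 1 contig set on each day. At day 13 set 1 was at 14.1 CPM and the other sets at 0, from 2 UMIs in 1 cell. At day 19 set 4 was at 41.0 CPM and the other sets between 0 and 6.33 CPM, from 5 UMIs in 2 cells over all sets. The rule for such gaps picks about 1 in 20 groups of 4 by chance when values are continuous. This rate does not hold where other sets are tied at 0, as at day 13 and in part at day 19.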

How the results depend on the processing

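No paired analysis was possible because the labels do not give the contig sets as samples with replicate numbers, so no test was made over them; the classes were set side by side within contig sets as a description only. Of 1502 recomputed ratios, for 82 combinations of a gene and a comparison, 11 changed the sign of a difference that was at least 2-fold, and ratios nearer 0, such as those of Ifng and Cd4, also crossed it. Settings for members against Pdcd1-zero cells at day 13: Zmynd15 was at -0.41 after thinning, Il2 at -0.17 without the deepest 5% of cells and between -0.93 and 5.23 over the sets left out, and without antigen-presenting droplets Ifitm1 was at 3.57 and Ifi207 at 0.93. At day 19 Plbd1 was at 0.10 with no myeloid UMIs and between -1.91 and 1.62 over the sets left out. Between the days Cd63 was at 0.12 after thinning, Ifng at -0.087 with the deepest cell per clonotype, Cxcl9 at 1.63 without antigen-presenting droplets, and Ccl3 between -0.22 and 3.68 over the sets left out.

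The number of genes at least 2-fold apart at day 13, 53, was 268 with genes of at least 30 UMIs, 35 without antigen-presenting droplets and 48 to 67 over the sets left out. At day 19 it was 85, and 165 with equal weight per set, 33 after thinning, 52 with 1 cell per clonotype, 407 with at least 30 UMIs and 43 to 93 over the sets left out. Between the days it was 151, and 96 in cells with 1 TRA and 1 TRB chain, 72 with 1 cell per clonotype, 479 with at least 30 UMIs and 86 to 164 over the sets left out. The causes were not tested, apart from the lower minimum, which admits genes with fewer UMIs.

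At 2000 UMIs per barcode the share with Pdcd1 was 37.2% and 51.7%, and over the sets left out it ran from 43.8% to 52.8% and from 57.1% to 67.9%. With sizes over all barcodes the clonal share was 24.8% in members and 22.1% in Pdcd1-zero cells at day 13, and 61.1% and 30.4% at day 19. With equal draws it was 3.82% in Pdcd1-zero cells at day 13, and 26.6% and 7.41% at day 19. Over the sets left out it ran from 6.58% to 13.0% and from 5.97% to 10.8% at day 13, and from 33.3% to 48.9% and from 4.0% to 19.1% at day 19. The CD279 tag ratio at day 13 ran from 0.010 to 0.076 over the sets left out.

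Counts below 100 UMIs, 1 capture per day, and day-19 set 1 with 3 members limit all of these values.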

Other observations

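Of 80 clonotypes of members at day 19, 6 also held Pdcd1-zero cells, with 20 members and 7 Pdcd1-zero cells between them. At day 13 this held for 3 clonotypes, with 3 cells of each class. One member at day 19 carried TRAV11 with TRAJ18, the TRA rearrangement of invariant natural killer T cells. TRBV19 was used by 10 of 83 set-wise clonotypes of members at day 19 and by 8 of 97 at day 13. In Pdcd1-zero cells it was used by 9 of 54 at day 19 and by 5 of 101 at day 13, so its use is not particular to members. Among members at day 19, Ikzf2 and Lag3 were found together in 32 cells, Ikzf2 without Lag3 in 21 and Lag3 without Ikzf2 in 38. Of the 25 cells with Il21, 8 had Ikzf2, as did 53 of all 135 members.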
